A study of Mus musculus with 6 samples.

Results

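The 35 genes described here are mouse genes imprinted through DNA methylation that a parental germ line lays down. Genes of the Igf2 to Phlda2 domain on distal chromosome 7 are not among them. They were chosen by symbol, all 35 have a row in the expression table of 24028 genes, and they fall into 16 imprinted domains. RNA was measured in fully grown oocytes at the germinal vesicle stage, arrested before meiotic maturation. The 3 dKO libraries came from Ring1 -/-; Rnf2 f/f; Zp3-cre females, in which a Cre recombinase driven by the oocyte promoter of Zp3 deletes Rnf2 in growing oocytes. The 3 control libraries came from Ring1 -/-; Rnf2 f/f females without the transgene. Both groups therefore lacked Ring1, no library with intact Ring1 is analysed here, and any effect of Cre itself is confounded with that of the Rnf2 deletion. All females were of a mixed FVB, 129/Sv and C57BL/6J background and about 3 months old. Each library pooled 15 oocytes of 1 female, so replicates are separate animals, and granulosa cells had been stripped off by pipetting. Levels are FPKM, fragment counts scaled for transcript length and library size, which keep no absolute depth. Values after ± are SDs over 3 libraries unless marked as SE.

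An imprinted gene is transcribed mainly from the copy inherited from one parent. The choice is set by a germline differentially methylated region (DMR) that is methylated in either the egg or the sperm. Most such DMRs are methylated during oocyte growth, by DNMT3A with its cofactor DNMT3L, along units that the oocyte itself transcribes. In a fully grown oocyte every chromosome carries the maternal pattern, so promoters within a DMR methylated in the egg are methylated on every copy there. Some genes usually expressed from the paternal copy, such as Mest and Peg3, were still well above 1 FPKM in control oocytes, as given below. RING1 and RNF2 are the E3 ubiquitin ligases of Polycomb repressive complex 1 (PRC1), which monoubiquitinates histone H2A and represses genes mainly at unmethylated CpG islands. The table gives 1 value per gene, so parental alleles and alternative promoters of a gene are not separated.

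Rnf2 itself stood at 14.8, 8.44 and 5.31 FPKM in dKO libraries, against 53.7, 46.8 and 48.2 FPKM in control libraries, a difference of -2.37 ± 0.30 in log2 units (SE; limma adjusted p = 0.000696). The test was limma on log2(FPKM + 1), run over the 11334 genes that reached 1 FPKM in 3 or more libraries, with Benjamini-Hochberg adjusted p under 0.05 as the threshold. By it 1587 genes were higher and 798 lower in dKO oocytes. The lower calls numbered 258, 262 and 231 without control replicate 1, 2 and 3, and 1465 without dKO replicate 2. Rises made up 66.5% of the calls, but 54.4% after median-ratio scaling, 52.6% after quantile normalization and 48.0% after centring of every library, which put the median change of all genes at -0.12, against -0.02 on the deposited scale. Relative to control replicate 1, sequencing depth read from the spacing of low values was 0.660, 0.801 and 1.09 in dKO libraries, against 1, 0.908 and 1.01 in control libraries. All 12 oocyte markers were above 1 FPKM in every library, but their summed level was 7320 to 8592 FPKM in dKO libraries and 9859 to 10416 FPKM in control libraries. Of the 12, 1 rose (Dppa3, also an imprint factor) and 2 fell (Bmp15 and Ooep, named after their values were seen), with a median log2 change of -0.52, and for 6 every dKO library was below every control library. Over all genes tested 14% were called higher and 7.04% lower, and 19.2% had every dKO library below every control library. The sums of granulosa and of stroma markers moved with genotype. The summed level of 16 granulosa and cumulus markers was 49.9 to 52.2 FPKM in dKO libraries and 27.6 to 34.9 FPKM in control libraries. Most of that difference lay in Fshr, given below, and Nr5a2. Nr5a2 averaged 25.5 ± 1.61 FPKM in dKO and 16.5 ± 2.02 FPKM in control oocytes. The 9 theca and stroma markers summed to 6.01 to 10.01 FPKM in dKO libraries and 1.02 to 1.18 FPKM in control libraries, mostly through Nr2f2 and Dcn. In such bulk samples the number of cells of a type, the RNA per cell and the kind of cell that expressed a marker cannot be told apart. Of the 7 granulosa markers tested 3 rose: the FSH receptor gene Fshr (10.6 ± 1.23 FPKM in dKO and 0.158 ± 0.0183 FPKM in control oocytes), Has2 and Nr5a2 (Fshr and Has2 named after their values were seen). Fshr, Has2 and the stroma marker Nr2f2 passed the filter only through the dKO libraries and so had to differ. Cyp19a1, the aromatase gene, averaged 5.78 FPKM in dKO and 9.94 FPKM in control oocytes and did not pass the test. The cumulus gene Ptx3 was listed at 0 in every library, and the theca enzyme gene Cyp17a1 did not exceed 0.116 FPKM in any. Nr2f2 rose (4.64 ± 1.91 FPKM in dKO and 0.521 ± 0.0214 FPKM in control oocytes), and the untested Dcn averaged 1.41 FPKM in dKO and 0.207 FPKM in control oocytes. The 5 endothelial markers summed to 19.4 to 25.3 FPKM in dKO and 24.2 to 33.1 FPKM in control libraries, led by Pecam1, which fell, and Tek, which did not pass the test. The 7 blood markers, led by Cd68 and Lyz2, summed to 1.52 to 3.66 FPKM in dKO and 0.568 to 2.10 FPKM in control libraries, with none past the threshold. Their part in the results below was not tested.

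In dKO oocytes 4 imprinted genes rose (Ndn, Magel2, Rasgrf1 and Inpp5f) and 1 fell (Snrpn). They were found among the 20 of the 35 genes that passed the filter on low values, and the other 15 tested genes did not pass the threshold. Without control replicate 1, and likewise without control replicate 3, 2 genes were called higher, and without control replicate 3 none was called lower. The replicate block left 3 higher and 1 lower. Over all genes tested the background of calls was 14% higher and 7.04% lower, 21% in all, and the imprinted genes tested had 20% and 5.0%. Their median log2 change was -0.05, against -0.02 for all genes tested. Ndn, Magel2 and Rasgrf1 passed the filter only through the dKO libraries and so had to differ. Among the 34 genes above 0 in any library, the groups did not overlap with dKO above in 6 and with dKO below in 2, which is 17.6% and 5.88%. Over all 20310 genes above 0 those shares were 22.3% and 12.5%. The share of changed imprinted genes was thus near that of all genes tested.

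**Figure D1:**
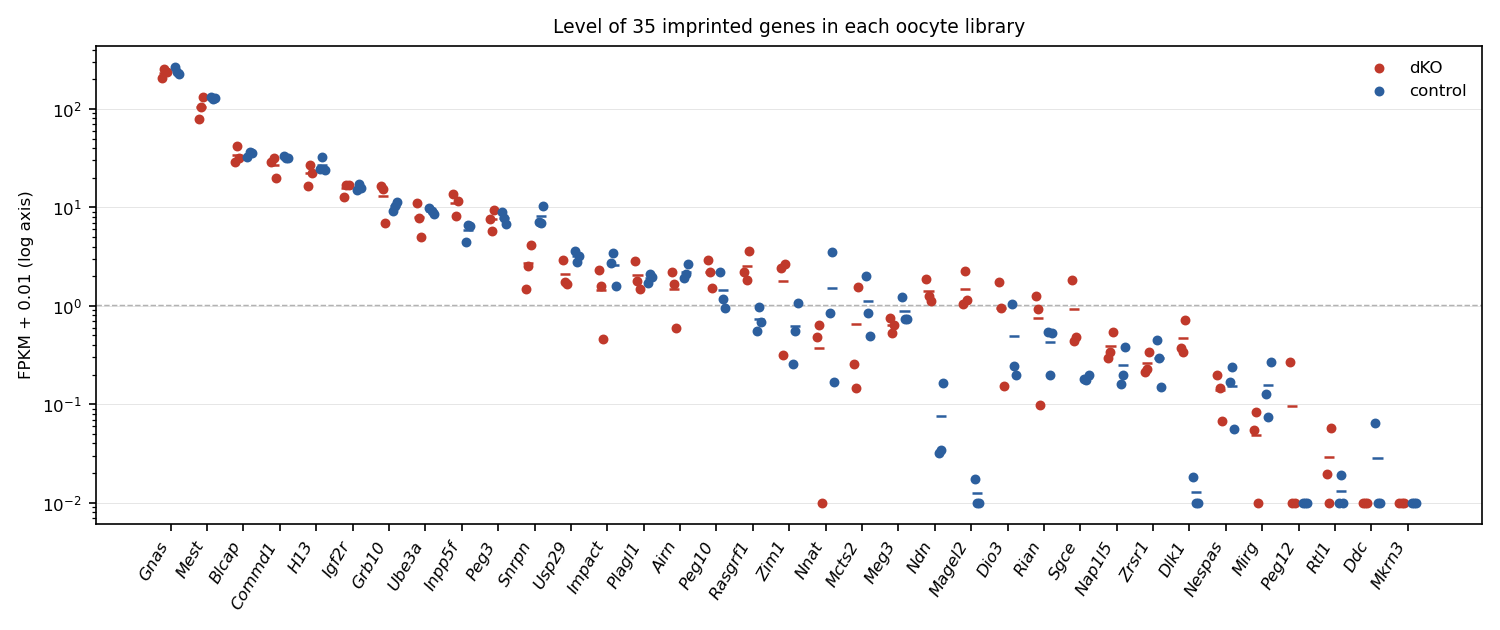
FPKM + 0.01 on a log axis for each of the 35 genes, ordered by mean level. Each point is 1 library, 3 dKO (red) left of 3 control (blue), bars are group means, and the dashed line marks 1 FPKM. Ndn, Magel2 and Dlk1 are the genes with control libraries near the floor and all dKO libraries well above it.

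The imprinted genes covered a wide range of levels in oocytes. Per length, Gnas was the most abundant at 231 ± 25.7 FPKM in dKO and 243 ± 19.4 FPKM in control oocytes (SD, n = 3 each), followed by Mest at 105 ± 26 FPKM in dKO and 129 ± 2.27 FPKM in control oocytes. Over all 6 libraries 9 further genes averaged 5 to 50 FPKM, 7 averaged 1 to 5 FPKM and 17 averaged under 1 FPKM. All 6 genes of the Dlk1-Meg3 domain were in the lowest class. The dKO libraries scattered more: the SD of log2(FPKM + 1) was larger among dKO than among control libraries in 19 of the 20 tested imprinted genes, and in 80.2% of all genes tested.

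The Snrpn domain on chromosome 7, the mouse counterpart of the Prader-Willi and Angelman region, held 3 of the 5 changed genes, and they moved in opposite directions. Snrpn, which encodes the spliceosomal protein SmN, fell to 1.45, 2.50 and 4.15 FPKM in dKO libraries, against 7.16, 6.94 and 10.4 FPKM in control libraries. Every dKO library was below every control library, and the dKO mean was 33.1% of the control mean. On the log2 scale it changed by -1.35 ± 0.30 (SE; limma adjusted p = 0.0125), and without control replicate 3 by -1.19 (limma adjusted p = 0.0591). Snurf, a protein made from the same transcripts, has a row of its own and was below the filter, at 0.000359, 0.508 and 0.00101 FPKM in dKO libraries, against 0.663, 1.03 and 0.675 FPKM in control libraries. How the authors' counting split reads between these rows is not given in the sources used here, but both rows were lower in every dKO library than in any control library.

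Ndn and Magel2, neighbouring genes of the MAGE family on the other side of Snrpn from Ube3a, were nearly silent in control oocytes. Ndn, which encodes the growth suppressor necdin, had 1.88, 1.24 and 1.11 FPKM in dKO libraries, against 0.0222, 0.0246 and 0.153 FPKM in control libraries. This was a log2 difference of 1.17 ± 0.18 (SE; limma adjusted p = 0.00187). Magel2, a partner of ubiquitin ligases in endosomal protein recycling, had 1.03, 2.23 and 1.14 FPKM in dKO libraries, while 1 control library held 0.00721 FPKM and the others were listed at 0. Its difference was 1.27 ± 0.20 log2 units (SE; limma adjusted p = 0.00256). Both genes reached only low levels in dKO oocytes, and the size of their changes depended on the pseudocount: at 0.1 in place of 1 the log2 change was 3.24 for Ndn and 3.86 for Magel2. Quantile normalization took Ndn to a log2 change of 0.62 (limma adjusted p = 0.0694), but Magel2 stayed past the threshold there (0.0156).

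The other imprinted genes of the domain did not pass the threshold or were not tested. Ube3a, the ubiquitin ligase of Angelman syndrome and expressed from the maternal copy in neurons, had 11.2, 7.79 and 5.03 FPKM in dKO libraries, against 9.91, 9.21 and 8.57 FPKM in control libraries (limma adjusted p = 0.546). Its dKO values lay on both sides of the controls, with a 95% interval of the log2 change from -0.84 to 0.35. Mkrn3, a makorin RING finger gene beyond Magel2, was listed at 0 in all 6 libraries. Peg12, a FRAT family gene next to Mkrn3, had 0.260 FPKM in dKO replicate 1 and was listed at 0 in the other libraries. On the far side of Ube3a, the phospholipid transporter gene Atp10a averaged 3.62 ± 1.15 FPKM in dKO and 3.79 ± 0.161 FPKM in control oocytes (limma adjusted p = 0.823). Gabra5, a GABA-A receptor subunit gene, lies beyond it and is not imprinted as a rule. It had 7.58, 9.51 and 9.96 FPKM in dKO libraries, against 3.66, 4.06 and 3.80 FPKM in control libraries (limma adjusted p = 0.00554). Gabra5 was picked for naming after its values were seen. Along the chromosome the rises thus lay on either side of a stretch that holds Atp10a and Ube3a, which did not pass, and Snrpn, which fell.

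**Figure D2:**
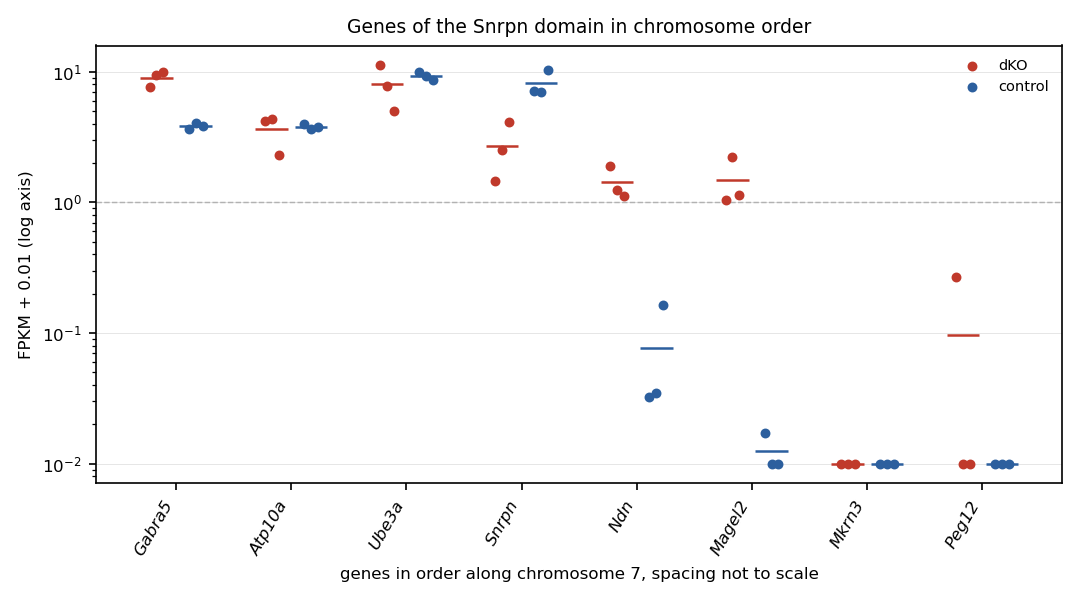
FPKM + 0.01 on a log axis for the listed genes of the Snrpn domain, in their order along chromosome 7 with spacing not to scale. Points are libraries, 3 dKO (red) left of 3 control (blue), bars are group means and the dashed line marks 1 FPKM. Gabra5, Ndn and Magel2 have all dKO libraries above all control libraries, and Snrpn has all of them below.

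The promoters of the changed genes in this domain differ in CpG content, which the RefSeq windows show (build GRCm38.p6, from 250 bases before to 50 after each annotated start, CG dinucleotides in capitals). RefSeq lists 4 Snrpn starts. The one nearest the gene body lies at the maternally methylated DMR, and the others belong to upstream exons, from which oocytes are known to transcribe across that DMR. The most distant upstream start and the DMR start are printed, followed by Ndn and Magel2, since these genes moved in opposite directions.
Snrpn, chr7:60450128-60450427, minus strand: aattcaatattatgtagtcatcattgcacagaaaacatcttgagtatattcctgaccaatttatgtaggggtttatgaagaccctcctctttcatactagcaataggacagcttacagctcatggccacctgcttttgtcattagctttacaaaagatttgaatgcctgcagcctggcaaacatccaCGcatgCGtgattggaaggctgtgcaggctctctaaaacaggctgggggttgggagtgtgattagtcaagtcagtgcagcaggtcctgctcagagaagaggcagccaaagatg
Snrpn, chr7:60005150-60005449, minus strand: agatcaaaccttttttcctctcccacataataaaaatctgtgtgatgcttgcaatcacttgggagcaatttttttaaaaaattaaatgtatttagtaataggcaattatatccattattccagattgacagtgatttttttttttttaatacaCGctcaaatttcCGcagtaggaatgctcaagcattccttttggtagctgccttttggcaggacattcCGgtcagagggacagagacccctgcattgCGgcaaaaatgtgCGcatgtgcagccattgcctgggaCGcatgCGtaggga
Ndn, chr7:62348027-62348326, plus strand: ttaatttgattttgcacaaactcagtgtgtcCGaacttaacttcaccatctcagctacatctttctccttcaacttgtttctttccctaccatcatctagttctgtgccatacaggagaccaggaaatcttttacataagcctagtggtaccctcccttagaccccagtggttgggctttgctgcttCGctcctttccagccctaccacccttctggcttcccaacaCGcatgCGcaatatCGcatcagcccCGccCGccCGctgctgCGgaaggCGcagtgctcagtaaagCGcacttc
Magel2, chr7:62376729-62377028, plus strand: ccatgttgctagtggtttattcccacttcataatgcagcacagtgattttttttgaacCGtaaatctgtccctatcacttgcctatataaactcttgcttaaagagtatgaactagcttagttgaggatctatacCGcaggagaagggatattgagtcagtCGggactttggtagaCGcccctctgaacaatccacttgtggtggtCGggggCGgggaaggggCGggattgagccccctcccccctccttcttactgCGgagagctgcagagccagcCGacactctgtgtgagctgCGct

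The 3 upstream Snrpn windows are CpG-poor, with 2, 3 and 4 CG dinucleotides in 300 bases, while the DMR start has 7, Ndn 11 and Magel2 10. The median over all 32851 RefSeq promoter windows was 7. The upstream windows resemble one another, at 79.7% to 81.1% identity in pairwise alignment, and each is 45.3% to 50.2% identical to the DMR window. They share an unbroken run of 49 bases that holds no CG, shown here because it marks the family of upstream starts.
Snrpn upstream windows, shared run: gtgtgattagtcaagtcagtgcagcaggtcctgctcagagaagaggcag

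The 8-letter palindrome CGCATGCG, which both strands spell alike, occurs in all 4 Snrpn windows and in Ndn, and elsewhere among the imprinted genes in Nnat and Commd1. It was picked after the sequences had been read. It stands in 7 of the 42 windows of imprinted genes (16.7%) and in 615 of all 32851 windows (1.87%). The 4 Snrpn windows are not independent, since 3 of them share most of their sequence. The Snrpn value is 1 number for all these starts, so the fall cannot be assigned to one of them.

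Rasgrf1 and Inpp5f were the other changed genes. Rasgrf1, a guanine nucleotide exchange factor that activates Ras, is expressed from the paternal copy and its DMR is methylated in sperm. It had 2.18, 1.83 and 3.59 FPKM in dKO libraries, against 0.544, 0.974 and 0.682 FPKM in control libraries, with no overlap. The difference was 1.004 ± 0.227 log2 units (SE; limma adjusted p = 0.0143), and 1.64 at a pseudocount of 0.1. Without control replicate 1 or 3 the limma adjusted p was 0.0687 and 0.0591, and after quantile normalization 0.135 (log2 change 0.62).

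Inpp5f encodes a phosphoinositide phosphatase, and only a shorter transcript from an internal start is imprinted. It had 13.5, 8.08 and 11.5 FPKM in dKO libraries, against 4.47, 6.66 and 6.44 FPKM in control libraries, again with no overlap. The dKO mean was 189% of the control mean and the log2 change 0.80 ± 0.24 (SE; limma adjusted p = 0.0453). This call was the weakest of the 5. With the replicate number as a block the adjusted p was 0.0509, and with a single library left out it was 0.0199 without dKO replicate 2 and 0.0773 to 0.171 without any of the others. Exons of Inpp5f overlap those of the predicted gene Gm43580. The promoter window of Rasgrf1 is CpG-rich, with 26 CG dinucleotides, and that of full-length Inpp5f holds 15. The median was 13 in the windows of the 4 genes that rose and 17.5 in those of imprinted genes not past the threshold. A link between CpG content and direction of change was not tested.
Rasgrf1, chr9:89909525-89909824, plus strand: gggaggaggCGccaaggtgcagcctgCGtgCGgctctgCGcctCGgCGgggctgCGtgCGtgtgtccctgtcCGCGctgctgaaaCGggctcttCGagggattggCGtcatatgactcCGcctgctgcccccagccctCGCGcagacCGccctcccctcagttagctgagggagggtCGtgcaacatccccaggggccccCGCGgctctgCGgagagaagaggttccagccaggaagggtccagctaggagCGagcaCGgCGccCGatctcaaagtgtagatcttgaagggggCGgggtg
Inpp5f, chr7:128611115-128611414, plus strand: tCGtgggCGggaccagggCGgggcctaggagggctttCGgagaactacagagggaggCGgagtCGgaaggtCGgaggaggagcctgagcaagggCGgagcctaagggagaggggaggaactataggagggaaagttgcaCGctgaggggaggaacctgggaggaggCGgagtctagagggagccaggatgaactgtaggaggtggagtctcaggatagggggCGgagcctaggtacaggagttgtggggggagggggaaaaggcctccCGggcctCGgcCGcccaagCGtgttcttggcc

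Over all imprinted genes listed, RefSeq held promoter windows for 30 of the 35 genes, 42 windows in all. The ratio of observed to expected CG was over 0.6 in 52.4% of them, against 35.4% of all windows. The hexamer TGCCGC, the methylated motif that the imprint guardian ZFP57 binds, was searched on both strands and stood in 26.2% of these windows and 11.6% of all windows. Some of the 42 windows overlap one another, as for Mest, so they are not independent. None of the windows of Ndn, Magel2, Rasgrf1 and Inpp5f held the hexamer, and of the 4 Snrpn windows only the DMR one did. Whether the windows of Ndn, Magel2, Rasgrf1 and Inpp5f lie within a DMR was not examined.

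Grouped by the copy usually expressed in later tissues, the changes fell among paternally expressed genes and Inpp5f. Among 23 paternally expressed genes 11 passed the filter, and 3 rose and 1 fell, with a median log2 change of -0.05. The 3 that rose, Ndn, Magel2 and Rasgrf1, are those that passed the filter only through the dKO libraries, so their count is no support for a difference between the classes. Of 9 maternally expressed genes 6 were tested, none of which passed the threshold or had an unadjusted limma p under 0.05, with a median of -0.04. Of the 3 genes whose allele depends on the transcript (Gnas, Inpp5f and H13) all passed the filter and 1 rose. The difference between these classes was not tested, and the background over all genes was 14% higher and 7.04% lower.

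**Figure D3:**
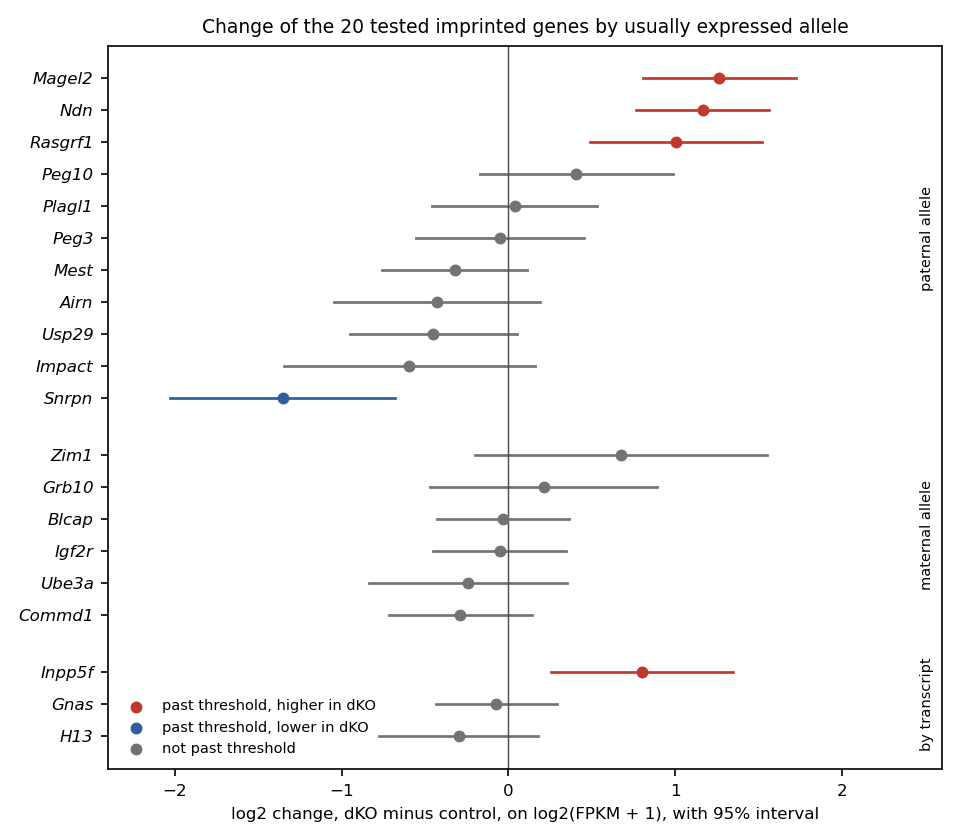
Log2 change on log2(FPKM + 1), dKO minus control, with its 95% interval (limma), for the 20 tested imprinted genes, grouped by the allele usually expressed. Red and blue mark genes past the threshold, higher and lower in dKO. Every interval of the 6 maternally expressed genes crosses 0, and in the paternally expressed group Magel2, Ndn and Rasgrf1 lie above 0 and Snrpn below it.

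The 15 tested genes that did not pass the threshold had log2 changes from -0.59 to 0.68, 11 of them below 0 and 4 above. For 12 of the 15 the 95% interval lay within 1 log2 unit on either side. The exceptions were Zim1, Impact and Airn. Gnas, which encodes the stimulatory G protein alpha subunit that keeps oocytes in meiotic arrest, had 204, 255 and 236 FPKM in dKO libraries, against 265, 235 and 229 FPKM in control libraries, with an interval from -0.43 to 0.29. Mest, an alpha/beta hydrolase gene, had 79.2, 105 and 131 FPKM in dKO libraries, against 132, 128 and 128 FPKM in control libraries. Only dKO replicates 1 and 2 were lower, and the interval was -0.76 to 0.11.

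The maternally expressed Igf2r clears the growth factor IGF2 and is silenced in cis by the antisense RNA Airn where that RNA is made from the paternal copy. Igf2r had 12.7, 16.9 and 17.0 FPKM in dKO libraries, against 15.2, 17.2 and 15.8 FPKM in control libraries (interval -0.45 to 0.35). Airn was low, at 2.18, 1.67 and 0.580 FPKM in dKO libraries and 1.89, 2.10 and 2.66 FPKM in control libraries (limma adjusted p = 0.292). Neither gene passed the threshold, and the lowest Airn value was that of dKO replicate 3.

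Grb10, an adaptor that restrains insulin and IGF receptor signalling, had 16.3, 15.5 and 6.85 FPKM in dKO libraries, against 9.26, 10.4 and 11.3 FPKM in control libraries. Its dKO libraries lay on both sides of the controls (limma adjusted p = 0.647), and without dKO replicate 3 it was past the threshold (log2 change 0.58, adjusted p = 0.0394). Ddc, the aromatic amino acid decarboxylase gene beside Grb10, was listed at 0 in 5 of the 6 libraries and at 0.0551 FPKM in control replicate 1. Plagl1, a zinc finger regulator of other imprinted genes, averaged 2.04 ± 0.734 FPKM in dKO and 1.91 ± 0.216 FPKM in control oocytes (limma adjusted p = 0.917).

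In the Peg3 domain none of the 3 imprinted genes passed the threshold. Peg3, a zinc finger transcription factor, averaged 7.59 ± 1.82 FPKM in dKO and 7.81 ± 1.10 FPKM in control oocytes. Usp29, a ubiquitin peptidase gene transcribed away from the same promoter region, averaged 2.10 ± 0.697 FPKM in dKO and 3.18 ± 0.410 FPKM in control oocytes (limma adjusted p = 0.179). Zim1, a zinc finger gene next to Peg3, had 2.39, 0.303 and 2.67 FPKM in dKO libraries, against 0.244, 0.551 and 1.06 FPKM in control libraries. Only dKO replicate 2 lay among the controls, and without it Zim1 was past the threshold (log2 change 1.15, limma adjusted p = 0.0170).

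Peg10 and Sgce share a promoter region and are transcribed in opposite directions. Peg10, a retrotransposon-derived gene needed for the placenta, had 2.89, 2.19 and 1.51 FPKM in dKO libraries, against 2.20, 1.16 and 0.935 FPKM in control libraries (limma adjusted p = 0.286). Sgce, the epsilon-sarcoglycan gene, was below the filter, at 1.83, 0.428 and 0.478 FPKM in dKO libraries, against 0.172, 0.167 and 0.190 FPKM in control libraries. All dKO libraries were above all controls, and under looser filters Sgce was not past the threshold (limma adjusted p of 0.150 and 0.196).

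Several imprinted genes that lie within the span of another gene were low while the host was well expressed. The host Blcap averaged 34.3 ± 7.01 FPKM in dKO and 34.7 ± 1.92 FPKM in control oocytes, while Nnat, the neuronatin gene within it, averaged 0.363 ± 0.324 FPKM in dKO and 1.51 ± 1.79 FPKM in control oocytes. Of the Nnat values only that of control replicate 2, 3.55 FPKM, was above 1 FPKM. Commd1, which acts in copper handling and protein sorting, had 28.7, 31.5 and 19.97 FPKM in dKO libraries, against 33.2, 31.5 and 32.0 FPKM in control libraries. Its groups did not overlap, though dKO replicate 2 and control replicate 2 both round to 31.5 FPKM, and it did not pass (limma adjusted p = 0.306). The splicing factor-related Zrsr1 within it averaged 0.252 ± 0.0701 FPKM in dKO and 0.288 ± 0.151 FPKM in control oocytes. H13, the signal peptide peptidase gene, averaged 22.1 ± 5.25 FPKM in dKO and 27.1 ± 4.60 FPKM in control oocytes (limma adjusted p = 0.341). Mcts2, within H13, averaged 0.646 ± 0.791 FPKM in dKO and 1.11 ± 0.801 FPKM in control oocytes. Nap1l5, a nucleosome assembly protein-like gene within Herc3, averaged 0.382 ± 0.127 FPKM in dKO and 0.238 ± 0.118 FPKM in control oocytes. The groups overlapped for each of these genes except Commd1. Impact, an inhibitor of the kinase GCN2, had 2.31, 1.58 and 0.451 FPKM in dKO libraries, against 2.73, 3.45 and 1.56 FPKM in control libraries (limma adjusted p = 0.234). Its lowest library was dKO replicate 3. Nespas, antisense to the Nesp transcript of Gnas, averaged 0.128 FPKM in dKO and 0.143 FPKM in control oocytes. The amplification kit named in the labels does not mark strand, so reads cannot be told apart where exons overlap, as for Gnas with Nespas, Mest with Copg2, Ube3a with Snhg14, Usp29 with Zim3 and Commd1 with Zrsr1.

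In the Dlk1-Meg3 domain on chromosome 12, whose DMR is methylated in sperm, no imprinted gene passed the filter. Dlk1, a non-canonical Notch family ligand, had 0.359, 0.328 and 0.701 FPKM in dKO libraries, while 1 control library held 0.00835 FPKM and the others were listed at 0. With no filter on low values Dlk1 was past the threshold (log2 change 0.54, limma adjusted p = 0.0237), where 9.88% of 20310 genes were higher. The non-coding RNAs Meg3, Rian and Mirg, made from the maternal copy, averaged 0.631, 0.746 and 0.0391 FPKM in dKO and 0.885, 0.416 and 0.147 FPKM in control oocytes. The retrotransposon-derived Rtl1 averaged 0.0190 FPKM in dKO and 0.00303 FPKM in control oocytes. Dio3, which inactivates thyroid hormone, averaged 0.944 FPKM in dKO and 0.483 FPKM in control oocytes, and its highest library was dKO replicate 1 at 1.75 FPKM. Outside Dlk1 the groups overlapped for the 5 other genes of this domain.

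Genes that lie in or beside these domains but are not among the 35 were compared in the same way. Of 50 such neighbours 44 had a row and 31 entered the test. In dKO oocytes 7 of these rose and 2 fell, which is 22.6% and 6.45%, with a background of 14% and 7.04%. The 2 falls were lost without any 1 control library, and without dKO replicate 2 and 3 the falls numbered 4 and 1. Of the 42 neighbours above 0, the groups did not overlap with dKO above in 16 (38.1%, against 22.3% of all genes above 0) and with dKO below in 5 (11.9%, against 12.5%). The median log2 change of the tested neighbours was 0.28. Of those tested, 4 (Casd1, Fam13a, Npepl1 and Bag3) passed the filter only through the dKO libraries and so had to differ, and they are 4 of the 7 rises, so the share of rises is not read as an excess. The summed levels of the granulosa markers and of the stroma markers were higher in the dKO libraries, as given above. Single markers such as Cyp19a1 were not, and the part of such cells in the neighbour rises was not tested.

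Casd1, a sialic acid O-acetyltransferase gene next to Sgce, had the largest change of the 31 tested neighbours. It had 9.29, 7.10 and 6.73 FPKM in dKO libraries, against 0.181, 0.1001 and 0.0798 FPKM in control libraries (log2 change 2.95, limma adjusted p = 2.91e-05). Asb4, a SOCS box gene on the other side of Peg10 that is imprinted in some tissues, had 13.8, 11.9 and 8.46 FPKM in dKO libraries, against 3.32, 1.22 and 3.84 FPKM in control libraries (limma adjusted p = 0.00516). Peg10, between them, did not pass.

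Fam13a, near Herc3 and Nap1l5, averaged 4.25 ± 0.419 FPKM in dKO and 0.208 ± 0.149 FPKM in control oocytes (log2 change 2.12, limma adjusted p = 9.49e-05). Npepl1, an aminopeptidase-like gene near Gnas, averaged 4.19 ± 1.08 FPKM in dKO and 0.271 ± 0.188 FPKM in control oocytes (log2 change 2.02, limma adjusted p = 0.000349). The remaining rises, named after their values were seen, were Gabra5, the actin nucleator gene Cobl next to Grb10 and the co-chaperone gene Bag3 next to Inpp5f. Cobl averaged 26.4 ± 9.10 FPKM in dKO and 10.01 ± 2.84 FPKM in control oocytes (limma adjusted p = 0.0106). Bag3 averaged 1.85 ± 0.356 FPKM in dKO and 0.137 ± 0.0879 FPKM in control oocytes (limma adjusted p = 0.000848). Mcmbp, on the other side of Inpp5f, averaged 14.9 ± 1.63 FPKM in dKO and 17.2 ± 0.335 FPKM in control oocytes. Every dKO library of Mcmbp was below every control library, and it did not pass (limma adjusted p = 0.407). Begain, Klf14 and Calcr, below the filter, were listed at 0 in all control libraries and reached 0.327 to 1.22 FPKM in dKO libraries. The falls were Zim3, a zinc finger gene whose exons overlap Usp29 on the other strand, at 4.84 ± 0.949 FPKM in dKO and 8.84 ± 0.446 FPKM in control oocytes, and Wars, the tryptophanyl-tRNA synthetase gene, at 12.0 ± 2.96 FPKM in dKO and 19.1 ± 1.41 FPKM in control oocytes. Their limma adjusted p was 0.0261 for Zim3 and 0.0496 for Wars. That of Wars was 0.0576 with the replicate block, 0.0126 without dKO replicate 2 and up to 0.177 without another single library, and that of Zim3 up to 0.114 without a control library.

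**Figure D4:**
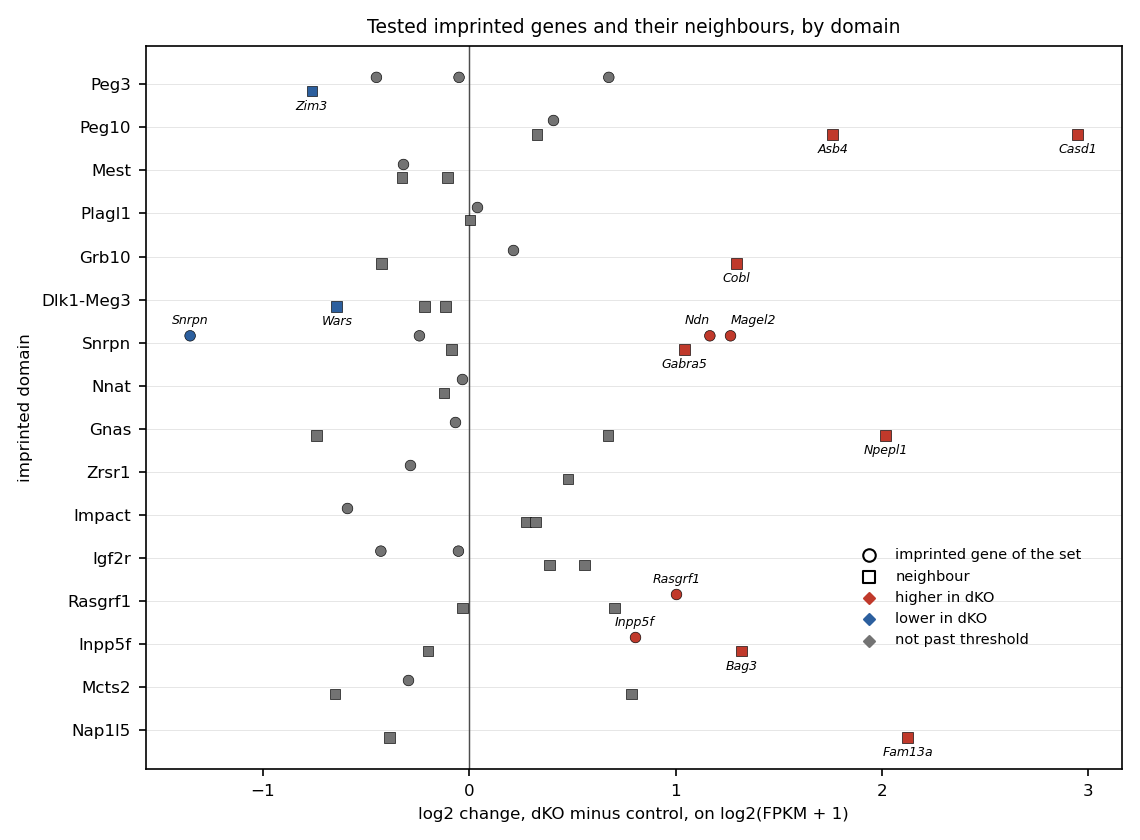
Log2 change on log2(FPKM + 1), dKO minus control, of tested imprinted genes (circles) and listed neighbours (squares), 1 line per domain. Red and blue mark genes past the threshold, higher and lower in dKO, and grey those that did not pass. Casd1, Asb4, Fam13a, Npepl1 and Cobl rose beside imprinted genes that did not pass or were not tested.

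Factors that set, guard or erase imprints were in large part expressed. Of 25 such factors 22 passed the filter. In dKO oocytes 2 of them rose and 3 fell, and the median log2 change of the 22 was -0.20. These 5 calls among 22 genes are near the background of 21%, of which 14% were higher and 7.04% lower. The summed level of the oocyte markers was also lower in dKO libraries, as given above, and its part in these falls was not tested. The de novo methyltransferase gene Dnmt3a had 21.2, 23.8 and 24.0 FPKM in dKO libraries, against 34.3, 34.5 and 33.8 FPKM in control libraries (limma adjusted p = 0.0242). Its cofactor gene Dnmt3l had 25.7, 30.5 and 19.3 FPKM in dKO libraries, against 40.7, 43.2 and 40.9 FPKM in control libraries (limma adjusted p = 0.0236). Nsd1, an H3K36 methyltransferase gene, averaged 37.3 ± 4.78 FPKM in dKO and 58.3 ± 6.12 FPKM in control oocytes (limma adjusted p = 0.0234).

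None of these 3 falls was past the threshold without control replicate 1, 2 or 3, with limma adjusted p of 0.0538 to 0.123. After quantile normalization Dnmt3a and Nsd1 were also not past the threshold (0.0595 and 0.0526). The rises were Dppa3, which shields the maternal genome from demethylation, at 1463 ± 435 FPKM in dKO and 769 ± 159 FPKM in control oocytes (limma adjusted p = 0.0490), and the H3K4 demethylase gene Kdm1a at 24.3 ± 2.04 FPKM in dKO and 16.9 ± 1.15 FPKM in control oocytes (limma adjusted p = 0.0498). With 1 library left out, the limma adjusted p of Dppa3 was 0.0144 without dKO replicate 2 and 0.0736 to 0.184 without any other, and that of Kdm1a was 0.0277 without dKO replicate 3 and 0.0690 to 0.203 without any other. Kdm1a was also not past the threshold with the replicate block (0.0866). Zfp57, which holds methylation at DMRs, had 600, 900 and 1086 FPKM in dKO libraries, against 1030, 1071 and 1135 FPKM in control libraries, and did not pass (limma adjusted p = 0.320).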

How the data were processed

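Per the submitters' processing notes, the authors used TopHat2 2.0.11 and Cufflinks 2.0.2 with mouse build mm9, and deposited FPKM per gene symbol. For the annotation, strand setting and scaling, the sources used here say nothing. Per the labels, RNA of pooled oocytes was amplified before library preparation, all dKO libraries carried one sequencing index and all control libraries another, and each replicate number marks a shared lane (3, 4 and 6). FPKM give no absolute depth, so their counting error is unknown.

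The table holds 24028 genes once 497 exactly repeated rows are dropped, and 3718 genes have 0 in every library. The 6 libraries were compared with limma 3.58.1 in R 4.3.3 on log2(FPKM + 1), for genes at 1 FPKM or more in at least 3 libraries, without a replicate block, two-sided, with p-values adjusted over all genes kept. The procedure was checked on simulated data. Deviations from group means correlated at 0.147, 0.107 and 0.0637 within same-numbered pairs, which the shared lanes pair, so blocking on the replicate was one of the alternatives. In all, 18 alternatives were run: pseudocounts, filters, scalings, eBayes settings, a threshold of 0.01, the block, and each library left out.

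All 35 imprinted genes are named, as are Rnf2, up to 4 called genes per direction of the neighbour and imprint factor lists by size of change, and the 2 most abundant genes of each marker list of another cell type. All other genes named, such as Ptx3, Cyp17a1, Snurf, Atp10a, Begain, Klf14, Calcr and Zfp57, were added after their values were seen. The imprinted genes and all lists were chosen with earlier results of these data known. Promoter windows come from RefSeq (GRCm38.p6), not the authors' build, and were matched by symbol, 30 of 35 with an entry. One gene of the neighbour list is not reported here.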

Additional observations from a re-analysis of the deposited data

How the results depend on the processing

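Of 371 results for single imprinted genes under the alternatives, 348 kept a call or the lack of one, 20 lost a call, 3 gained one and 0 reversed a call. Genes below the main filter counted as without a call, and most results are for genes with no call to lose. All 20 losses fell on called genes. They were 13 of 18 alternatives for Inpp5f, 4 of 17 for Rasgrf1, 2 of 18 for Snrpn and 1 of 17 for Ndn. A change of sign was not counted where neither setting gave a call. The log2 change of Peg3, for example, ran from -0.20 to 0.11 over the alternatives without a call. The call of Magel2 held under all 17 alternatives that tested it, including the threshold of 0.01. Imprinted genes called higher numbered 4, and 0 with the 5 FPKM filter (1 at an unadjusted limma p under 0.05), 1 after quantile normalization, 2 at a threshold of 0.01 and 2 to 5 with 1 library left out. Those called lower numbered 1, and 0 at a threshold of 0.01 (1 at an unadjusted p) and 0 to 1 with 1 library left out. With the replicate block as pairing, 3 imprinted genes were higher, the call of Inpp5f being lost (limma adjusted p = 0.0509), and 1 lower. Over all genes the block gave 1681 higher and 887 lower. Apart from Inpp5f, Wars and Kdm1a it changed no call of a tested imprinted gene, of Rnf2, of the neighbours and imprint factors past the threshold, or of Fshr, Has2, Nr5a2, Nr2f2 and Pecam1. It was not run for the other named genes.

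Over all genes, the higher calls were 655 with the 5 FPKM filter, 995 at a threshold of 0.01 and 1087 to 1869 with 1 library left out. The lower calls were 1276 after median-ratio scaling, 1572 after centring, 181 at a threshold of 0.01 and 231 to 1465 with 1 library left out. Imprint factors called higher were 1 with pseudocounts of 0.1 or 0.5, no filter, array weights or the block, 0 with the 5 FPKM filter, median-ratio scaling or centring (4, 5 and 4 at an unadjusted limma p under 0.05), 0 at a threshold of 0.01 (0 unadjusted) and 0 to 3 with 1 library left out. Those called lower were 1 after quantile normalization, 0 at a threshold of 0.01 (3 unadjusted) and 0 to 4 with 1 library left out. Neighbours called higher were 4 with the 5 FPKM filter. Those called lower were 1 with either pseudocount, no filter, either other filter, no trend, array weights or the block, 4 after centring, 0 at a threshold of 0.01 (1 unadjusted) and 0 to 4 with 1 library left out. The 5 FPKM filter tests fewer genes, 11 of the 35 among them; for the other settings the cause was not tested. Genes under 1 FPKM, 17 of the 35 on average level, rest on few reads, and their differences depend on the pseudocount. Two-sided permutation of 3 against 3 libraries cannot give a p under 0.1, so single genes were tested only in the model across all genes.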
